A study of Homo sapiens with 2 samples.

Results

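The nuclear genes for the subunits of oxidative phosphorylation were examined in a list of enriched genomic sites from a chromatin immunoprecipitation study of tagged ERG. Members were chosen by symbol from the RefSeq annotation of GRCh38.p14: protein-coding genes beginning with NDUFA, NDUFB, NDUFC, NDUFS or NDUFV (assembly factors named NDUFAF left out), SDHA to SDHD, UQCR, CYC1, COX4 to COX8 or ATP5. This gave 89 genes of the 19974 protein-coding genes on chromosomes 1 to 22 and X. They fell into complex I (38 genes), complex II (4), complex III (10), complex IV (17) and complex V, the ATP synthase (20). The experiment used F36P, a human erythroleukaemia cell line, transduced with an MSCV-PIG retroviral vector that was either empty (Vector, genotype labelled WT) or carried ERG with an AM tag (AM-ERG, genotype labelled ERG overexpression). Both were kept in puromycin at 1 µg/ml for 4 days, and an antibody to the tag was used for the precipitation, so that the experiment concerns an overexpressed, tagged ERG and not the cell's own protein. The labels give 1 library of each kind and the data analysed here are 1 list of 1645 peaks, of which 1564 lay on chromosomes 1 to 22 and X. The list does not name the library it was called from. No value therefore has a replicate error. AM-ERG was not compared with Vector here, and every comparison made here is between genes or positions within the list. Whether the listed enrichments already use the Vector library as control is not stated. The read depth is unknown, and a gene without a listed peak is one at which no site passed the peak caller's threshold.

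Oxidative phosphorylation is the work of 5 protein complexes of the inner mitochondrial membrane. Complexes I and II pass electrons from NADH and succinate to ubiquinone, complex III passes them on to cytochrome c and complex IV to oxygen, and the ATP synthase uses the resulting proton gradient to make ATP. Most subunits are encoded in the nucleus and a minority in mitochondrial DNA. The nuclear promoters are known for sites of NRF1, YY1 and the ETS-family factor GABP, which binds the same GGAA core as ERG. Differentiating erythroid cells depend on mitochondria for haem synthesis and lose them as they mature into red cells.

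Of the 5 peaks found at ends of subunit genes, 4 were at genes with a promoter sequence in the RefSeq table, and these promoters are shown first because each lies between 2 genes that are read in opposite directions. Each stretch runs 5′ to 3′ along the strand of the subunit gene and ends at the base before its start, and it holds no annotated transcribed base (RefSeq, GRCh38.p14). Capitals mark the ETS core, GGAA or its complement TTCC. The NDUFS3 stretch (chr11:47578971-47579073, plus strand) is the whole space between NDUFS3 and KBTBD4, and the COX4I1 stretch (chr16:85799545-85799694, plus strand) the whole space between COX4I1 and EMC8. The NDUFA13 stretch (chr19:19515975-19516224, plus strand) is the 250 bases next to NDUFA13.
NDUFS3: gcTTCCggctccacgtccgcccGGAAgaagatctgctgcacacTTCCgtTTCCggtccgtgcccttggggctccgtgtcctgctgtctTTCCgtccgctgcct
COX4I1: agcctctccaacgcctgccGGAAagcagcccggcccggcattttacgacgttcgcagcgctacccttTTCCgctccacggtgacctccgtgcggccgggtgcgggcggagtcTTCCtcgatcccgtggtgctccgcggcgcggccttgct
NDUFA13: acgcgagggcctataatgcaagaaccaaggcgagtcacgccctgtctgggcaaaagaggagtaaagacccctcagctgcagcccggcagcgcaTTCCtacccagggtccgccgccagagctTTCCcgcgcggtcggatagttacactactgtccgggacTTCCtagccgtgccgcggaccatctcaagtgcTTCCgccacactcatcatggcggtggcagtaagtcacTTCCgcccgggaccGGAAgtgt
The core occurred 5 times in the NDUFS3 stretch, 3 times in that of COX4I1 and 6 times in that of NDUFA13. The stretches differ in length, and so short a core is common. It was in 95.2% of 15812 coding promoter windows of 250 bases before to 50 after the start. The 250 bases before ATP5ME (chr4:674277-674526, minus strand) held no such core. There the capitals mark 2 matches to the NRF1 motif and 1 to the cyclic AMP response element (CRE).
ATP5ME: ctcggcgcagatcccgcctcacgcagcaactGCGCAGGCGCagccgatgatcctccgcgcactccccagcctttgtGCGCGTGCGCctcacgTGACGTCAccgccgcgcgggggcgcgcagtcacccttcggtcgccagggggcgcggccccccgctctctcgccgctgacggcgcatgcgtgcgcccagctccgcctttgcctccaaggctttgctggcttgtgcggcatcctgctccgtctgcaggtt
All of the NDUFS3 stretch and 86 bases of the NDUFA13 stretch were inside the peak, while the peaks of COX4I1 and ATP5ME began within the gene and covered none of theirs.

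Subunit genes held listed peaks about as often as other coding genes. A summit lay within 1 kb of an end of 5 of the 89 members, or 5.62% (95% Wilson interval 2.42 to 12.5%, counting error only), where 5.86% of all coding genes had one. The members were ATP5ME, NDUFB9, COX4I1, NDUFA13 and NDUFS3. In the gene or within 10 kb of it a summit was listed for 10 members, 11.2% (6.22 to 19.5%), against 9.58% of all coding genes. Both shares are near the background and are no result about the family. By complex, ends with a summit were found at 3 of 38 genes of complex I, 1 of 17 of complex IV, 1 of 20 of complex V and none of the 4 of complex II or the 10 of complex III. The intervals of all 5 complexes include the share of all coding genes. Among the more significant 50% of peaks 2 of the 89 members had a summit at an end, NDUFB9 and NDUFS3, against 3.01% of all coding genes. Among the 50% with higher fold enrichment NDUFS3 alone had one, against 3.28% of all coding genes. The plot of shares by complex sets these counts beside those of related gene lists.

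**Figure D1:**
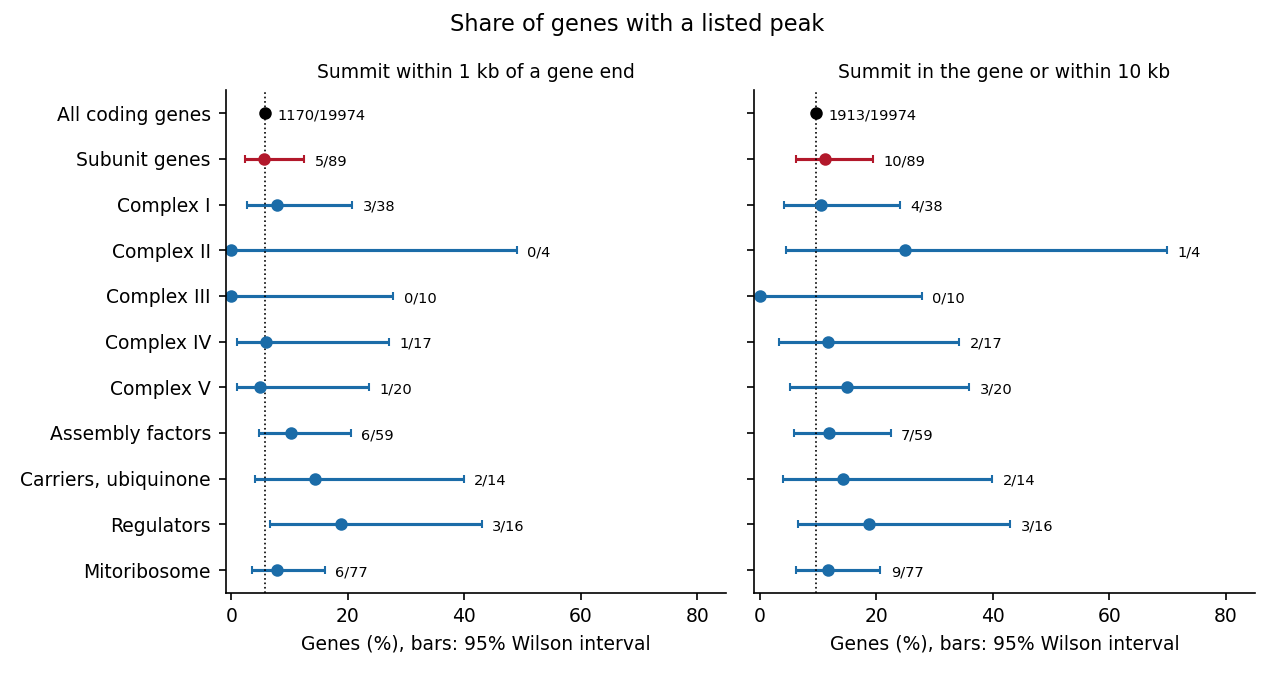
Percentage of genes with a peak summit within 1 kb of a gene end (left) or in the gene or within 10 kb (right), for all coding genes, the subunit genes, each complex and 4 related lists; points are shares, bars 95% Wilson intervals, dotted lines the share of all coding genes, and the printed fractions the counts. The 89 subunit genes lie at 5.62% and 11.2%, beside 5.86% and 9.58% for all coding genes.

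Most subunit genes were far from any listed site. The distance from a gene end to the nearest summit had a median of 309 kb over the 89 members, with quartiles of 49.4 and 1060 kb, and a median of 412 kb over all coding genes (quartiles 99.4 and 1480 kb). The members were also shorter, with a median length of 9.24 kb against 24.2 kb, which narrows the window searched in and around each gene. At the 1 kb limit there was a wide gap. The outermost member inside was NDUFS3 at 208 bp, and the nearest one outside was NDUFV2 at 2288 bp, followed by SDHA at 3088 bp.

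**Figure D2:**
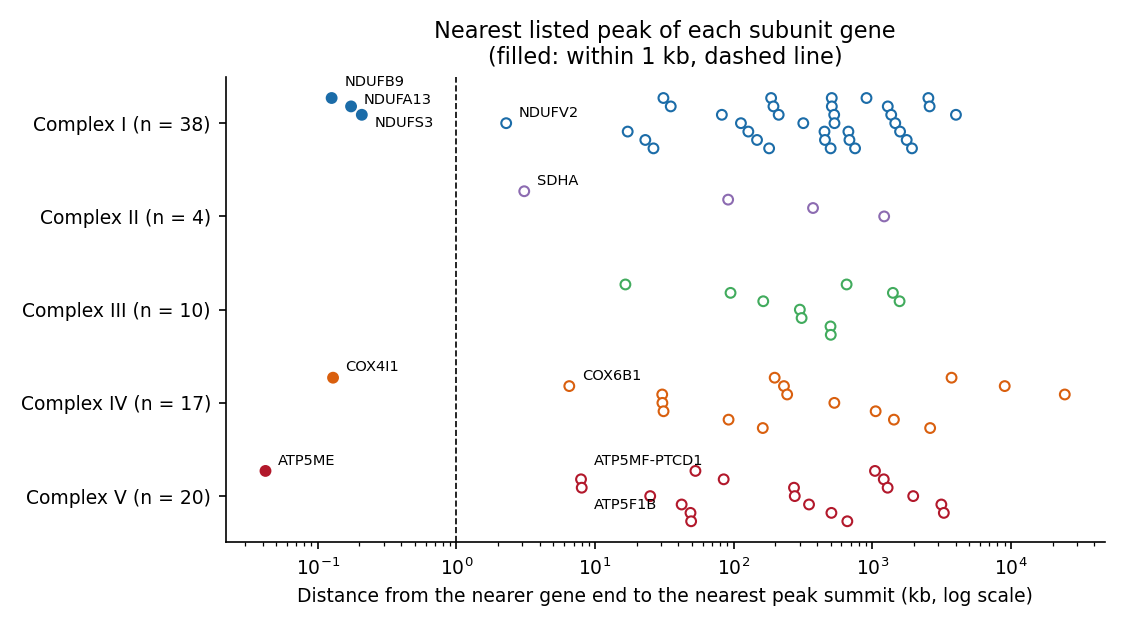
Distance from the nearer end of each subunit gene to the nearest listed summit, in kb on a log scale, 1 circle per gene and 1 band per complex (vertical offsets only separate the circles); filled circles lie within 1 kb, left of the dashed line. The 5 filled circles lie at 42 to 208 bp and the next gene, NDUFV2, at 2.29 kb.

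Complex I, which has the most members, had a peak at an end of 3 of its 38 genes (7.89%, against 5.86% of all coding genes). NDUFS3, a subunit of its catalytic core, had the strongest of the 5 peaks at member ends. That peak, at chr11:47578787-47579074, had a fold enrichment over local background of 5.91, the authors' value like all those that follow. The pileup recovered at its summit was 23 fragments on a local background of 3.06, with q = 1.22e-09. Of the 1564 peaks 23.2% had a higher fold. The summit was 208 bp before the NDUFS3 start and 104 bp inside KBTBD4, which encodes an adaptor of a ubiquitin ligase. The start of KBTBD4 was thus the nearer one. NDUFB9, an accessory subunit of the membrane arm, had a peak at chr8:124539056-124539336 with an enrichment of 4.52, a pileup of 26 fragments on 4.98 and q = 1e-07. Its summit was 126 bp inside the lower-coordinate end of the gene and 161 bp from the nearer end of TATDN1. NDUFA13, an accessory subunit also called GRIM-19 that is known as a partner of STAT3, had the lowest fold of the 5, 3.45, at chr19:19516139-19516457. The pileup there was 17 fragments on a background of 4.22 (q = 0.00261), and the summit was 174 bp after the start.

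Within complex I, 1 of the 7 genes of the catalytic core, NDUFS3, had a summit at an end (14.3%, against 5.86% of all coding genes). With NDUFV2, which encodes an iron-sulphur subunit of the NADH-oxidising end, 2 had one within 10 kb (28.6%, against 9.58%), and with so few genes the intervals, 2.57 to 51.3% and 8.22 to 64.1%, include both shares. The other core genes, NDUFV1 and NDUFS1 among them, had none within 10 kb. Of the 31 accessory genes, counted with the read-through locus NDUFC2-KCTD14, NDUFB9 and NDUFA13 had a summit at an end (6.45%) and no other had one within 10 kb. The peak counted for NDUFV2 was the strongest of the 10 at or near a member. It had a fold of 9.70, a pileup of 36 fragments on 2.82 and q = 4.16e-23, and 2.62% of peaks had a higher fold. It lay at chr18:9136277-9136999, with its summit inside the noncoding gene NDUFV2-AS1. The summit was 2288 bp beyond the NDUFV2 end but 152 bp before the start of ANKRD12, which encodes an ankyrin-repeat protein.

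Complex IV, the cytochrome c oxidase, had 1 peak at an end, at COX4I1. This gene encodes the common isoform of subunit 4. The peak, at chr16:85799722-85800037, had a fold of 4.26, a pileup of 22 fragments on a background of 4.40 and q = 4.74e-06. The summit was 129 bp after the start of COX4I1 and 280 bp from the start of EMC8. EMC8 encodes a subunit of the endoplasmic reticulum membrane protein complex. The COX4I1 paralogue COX4I2, found mainly in lung, had its nearest summit 30.6 kb from an end. The other isoforms with restricted tissue distribution, COX6A2, COX6B2, COX7A1, COX7B2 and COX8C, likewise had no summit in or within 10 kb of the gene, nor had the common isoforms COX6A1, COX7A2, COX7B and COX8A. COX6B1, which encodes a subunit facing the intermembrane space, had a summit 6526 bp before its start, at chr19:35641615-35642255. That peak, enriched 5.94-fold with 22 fragments piled up on 2.87, had its summit 52 bp after the start of ETV2, an ETS-family gene.

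In complex V, ATP5ME had the summit closest to a member's end. It encodes subunit e, a small membrane subunit that takes part in pairing ATP synthases. Its peak was the faintest of the 5 by significance, with q = 0.0176 beside a largest q of 0.0474 in the whole list. The pileup was 11 fragments on a background of 2.30, where the lowest of any peak was 10, and the fold was 3.64. The peak at chr4:673865-674246 lay wholly within ATP5ME. Its summit was 42 bp after the ATP5ME start and 308 bp from the start of MYL5, a myosin light chain gene. ATP5F1B, which encodes the catalytic beta subunit, had a peak of 4.35 fold 8023 bp away (chr12:56630016-56630600), inside BAZ2A and at no coding gene end. The read-through locus ATP5MF-PTCD1 had one of 3.78 fold 7930 bp away, within 1 kb of the starts of PDAP1 and BUD31. The summit nearest to ATP5MF itself was 49.4 kb away. No gene of the peripheral stalk (4 genes) or of the c ring (3 genes), nor the inhibitor gene ATP5IF1, had a summit within 10 kb.

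None of the 4 genes of complex II or the 10 of complex III had a summit at an end. Their Wilson intervals, 0 to 49.0% and 0 to 27.8%, include the 5.86% of all coding genes. SDHA, the flavoprotein of succinate dehydrogenase, had a peak of 5.46 fold and 17 fragments on 2.30 at chr5:271626-271905. It was 3088 bp beyond the SDHA end and 188 bp inside PDCD6, which encodes a calcium-binding protein. SDHB, SDHC and SDHD had none within 10 kb. All 10 complex III genes lacked one, and the nearest was 16.6 kb from CYC1, which encodes cytochrome c1. The core proteins UQCRC1 and UQCRC2 and the iron-sulphur protein gene UQCRFS1 were 309, 1570 and 502 kb from a summit. Of the 5 members counted through a peak away from their ends, 4 were thus counted through a peak at the start of another coding gene.

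The peaks at subunit gene ends were of ordinary to low enrichment. Their folds ran from 3.45 to 5.91 with a median of 4.26, where the 966 peaks at ends of coding genes ran from 2.03 to 15.7 with a median of 4.87. Of the 5, 4 were below that median. Their recovered pileups, 11 to 26 fragments with a median of 22, were close to the median of 20 at all gene ends, and their local backgrounds had a median of 4.22 against 3.45. None stood on more than 2 times the median background of 3.52 fragments. In the plot of fold against background they lie among the other peaks.

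**Figure D3:**
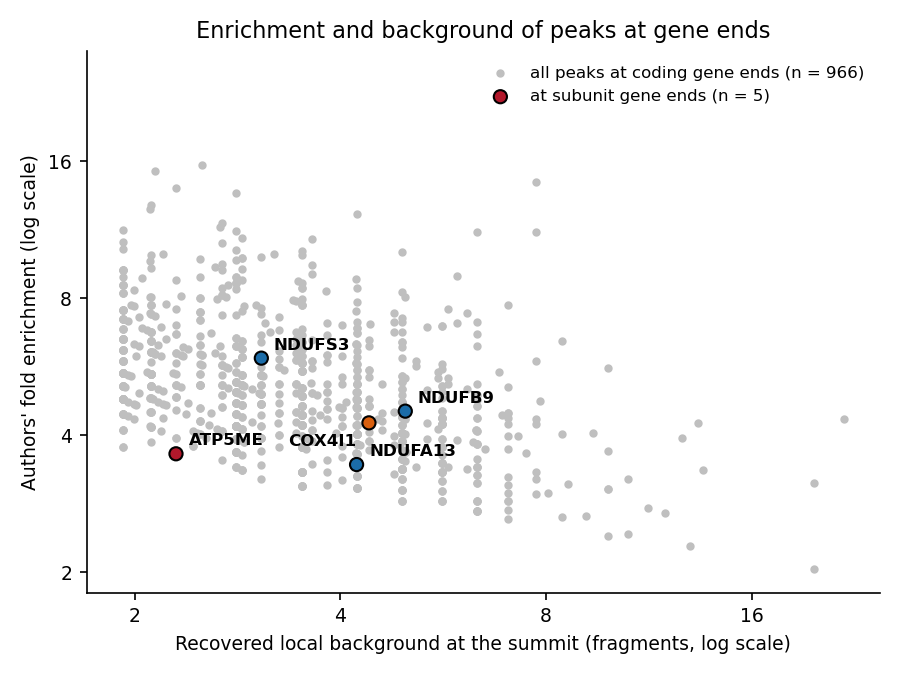
Authors' fold enrichment against the local background recovered at the summit (fragments), both on log scales; grey points are the 966 peaks at coding gene ends and coloured points the 5 at subunit gene ends. NDUFS3 has the highest fold of the 5 (5.91), NDUFA13 the lowest (3.45), and ATP5ME lies at the lower edge of the cloud.

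Every peak at a subunit gene end was also within 1 kb of an end of a neighbouring coding gene. This held for 5 of 5, while 22.4% of the 966 gene-end peaks were at ends of 2 or more coding genes. Subunit genes often have such neighbours: 41 of the 89 (46.1%) had another coding gene's end within 1 kb of one of theirs, compared with 28.6% of all coding genes. This is not particular to them, since the share was 54.5% for mitochondrial ribosomal protein genes and 59.3% for assembly factors. Of the 41 subunit genes, 5 had a peak (12.2%, against 9.98% of all coding genes with such a neighbour), and of the other 48 none had (4.21% of all coding genes without one). For mitochondrial ribosomal protein genes the counts were 6 of 42 with such a neighbour and 0 of 35 without. These splits were chosen after the values were seen, and with 5 genes no difference between the family and other coding genes was tested.

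The promoter table gave a strand for 71 of the 89 members. The 4 of them with a peak, NDUFS3, COX4I1, ATP5ME and NDUFA13, had it at the start and none at the opposite end. Among all coding genes, 766 of the 786 gene-end peaks whose nearest gene had a strand (97.5%) were nearer to its start. All 4 belonged to a divergent pair, in which 2 genes start within 1 kb of each other and are read in opposite directions. The starts were 104 bp apart for NDUFS3 and KBTBD4, 151 bp for COX4I1 and EMC8, 266 bp for ATP5ME and MYL5, and 677 bp for NDUFA13 and TSSK6, a testis-specific kinase gene. The space between NDUFB9 and TATDN1 was 34 bp, with neither gene in the table. Of the 22 members known to be in such a pair 4 had a peak at the start (18.2%, against 12.7% of 2162 coding genes in pairs), and of the 49 others none had (4.77% of 13650 coding genes). The split by such pairs was not planned in advance, and no difference was tested. The map of the 4 pairs shows that the summits did not share one position. That of NDUFS3 was on the neighbour's side, and those of ATP5ME, COX4I1 and NDUFA13 were 42, 129 and 174 bp into the subunit gene.

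**Figure D4:**
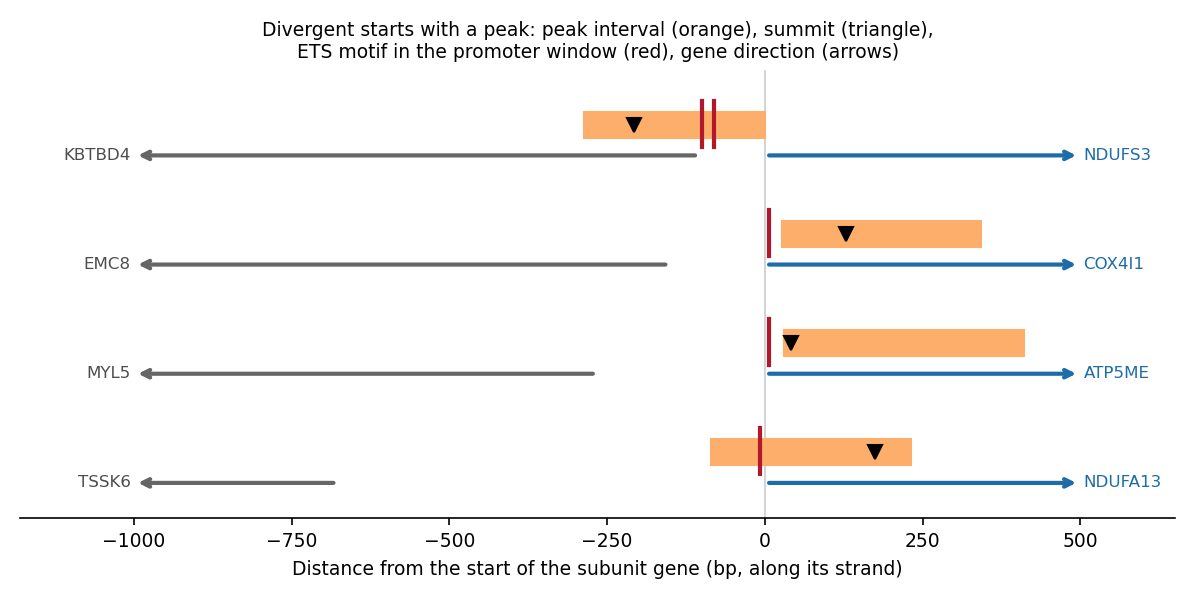
The 4 divergent pairs with a peak, drawn along the strand of the subunit gene with its start at 0 bp; arrows give gene direction (not gene length), orange bars the peak interval, triangles the summit, and red ticks each match of the ETS motif in the subunit gene's promoter window. The NDUFS3 summit lies at -208 bp and the other 3 at 42 to 174 bp.

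Promoter windows of 250 bases before to 50 after the start were then searched for fixed motifs on both strands. The ETS motif CCGGAAG was present in all 4 windows of members with a peak at the start. It was found in 20 of the 71 member windows (28.2%), 14.1% of 15812 coding windows and 43.6% of the 926 coding windows with a peak at the start. The 16 other members with it had no peak at the start: NDUFA1, NDUFB7 and NDUFS1 of complex I, SDHB and SDHD, UQCR11, UQCRH and UQCRQ of complex III, COX5B, COX6A1, COX6B1 and COX8A, and ATP5MG, ATP5MK, ATP5PD and ATP5PF. Of all coding windows with the motif 18.1% had a peak at the start and of those without it 3.84%, and for the members the counts were 4 of 20 and 0 of 51. Of the 10 members with both the motif and a divergent partner 4 had a peak (24.5% of such coding genes). Of the 10 with the motif alone none had (15.9%). This split was likewise not planned in advance, and no difference was tested.

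The sites themselves are shown for the members with a peak and, for comparison, for 4 members without one, 1 each from complexes I to IV, in 27 bases read along the strand that carries the motif, with CCGGAAG in capitals. Positions are counted from the start of the gene, its first base being 1 and bases before it negative. In ATP5ME the motif was at 4 to 10 on the strand opposite to the gene (site chr4:674257-674283), in COX4I1 at 3 to 9, also on the opposite strand, (chr16:85799687-85799713) and in NDUFA13 at -10 to -4 (chr19:19516205-19516231). NDUFS3 had 2 matches, at -102 to -96 on the opposite strand (chr11:47578962-47578988) and at -83 to -77 (chr11:47578981-47579007).
ATP5ME: gacctccgcaCCGGAAGcacaacctgc
COX4I1: tgtcccgcgaCCGGAAGagagcaaggc
NDUFA13: ccgcccgggaCCGGAAGtgtgggatac
NDUFS3, upstream match: ggacgtggagCCGGAAGcggaggttcc
NDUFS3, downstream match: ccacgtccgcCCGGAAGaagatctgct
The members without a peak had the same 7 letters in NDUFS1 at -157 to -151 on the opposite strand (chr2:206159585-206159611), UQCRQ at -54 to -48 (chr5:132866578-132866604), COX5B at -37 to -31 (chr2:97646015-97646041, the first of its 2 matches) and SDHD at -77 to -71 on the opposite strand (chr11:112086786-112086812).
NDUFS1: cgcagttccgCCGGAAGtggccccagc
UQCRQ: atggtatctcCCGGAAGttacctcacg
COX5B: aagcccgcccCCGGAAGtccctcctgt
SDHD: gctgggtgaaCCGGAAGtcgagaggcg
The middle of the motif was 36 bp from the summit in ATP5ME, 124 bp in COX4I1, 181 bp in NDUFA13 and, for the nearer match, 109 bp in NDUFS3. The matches lay inside the peak in NDUFS3 and NDUFA13, and outside it in ATP5ME and COX4I1. The windows of COX4I1 and NDUFA13 did not reach the summit. A match is a description of the sequence and does not show that a factor bound there.

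By count, with no test, motifs of NRF1, YY1 and CRE factors were also more frequent in the subunit promoters than in all coding windows. The NRF1 motif, GCGC and TGCGC with any 1 base between them, was in 17 of 71 member windows (23.9%, against 8.60%), and of the 4 with a peak it was in that of ATP5ME. The YY1 motif AAGATGGCG was in 8 (11.3%, against 2.69%) and in none of the 4, and the CRE motif TGACGTCA in 5 (7.04%, against 2.56%) and in 1 of the 4, again ATP5ME. The motif GGGCGG of SP and KLF factors was in 59.2% of member windows, 58.3% of all and 3 of the 4, and the NFY motif CCAAT in 35.2%, 36.4% and none. For GATA factors, GATAAG was in 5 member windows (7.04%, against 5.12%), and for RUNX factors, TGTGGTT was in 2 (2.82%, against 3.61%), with neither in the 4. The median GC content was 61.0% in member windows and 62.7% in all coding windows. It was 66.8% in the 4 and 65.8% in the 926 coding windows with a peak at the start. The plot of motif shares gives the 3 sets side by side.

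**Figure D5:**
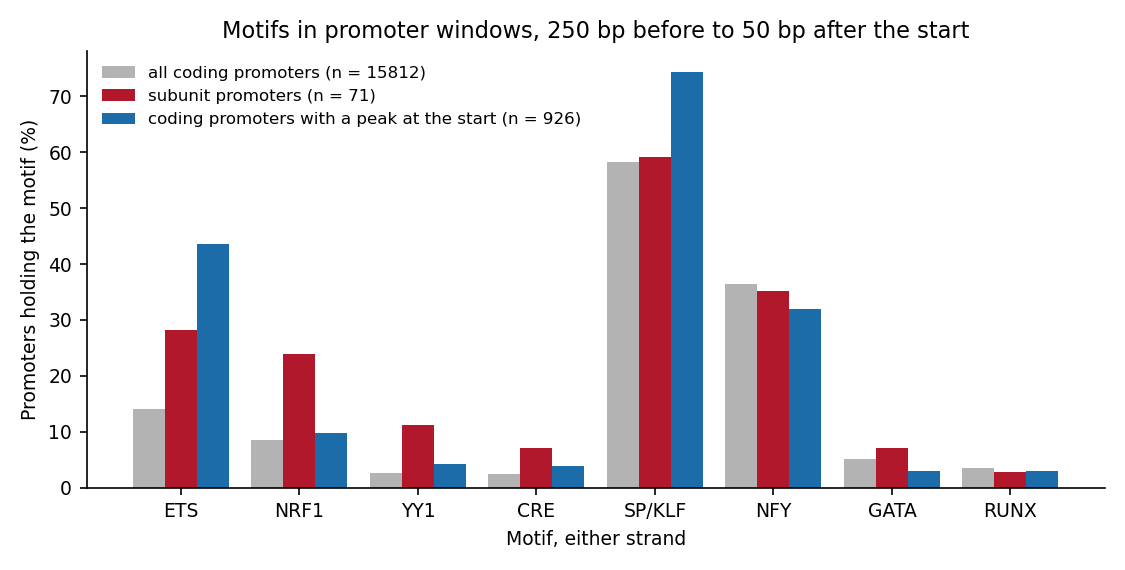
Percentage of promoter windows holding each motif on either strand, for all 15812 coding promoters (grey), the 71 subunit promoters (red) and the 926 coding promoters with a peak at the start (blue); bars start at 0 and ETS stands for CCGGAAG. The ETS share is 14.1%, 28.2% and 43.6%, and the NRF1 share 8.60%, 23.9% and 9.83%.

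Genes that build, supply or regulate the same complexes were counted for comparison. Assembly factors had a summit at an end of 6 of 59 genes (10.2%, Wilson interval 4.74 to 20.5%). They were SDHAF2 (fold 7.29), which helps attach the flavin of SDHA, COA5 (5.61), FOXRED1 (5.42), ECSIT (3.20), COA8 (3.37) and COX20 (3.06), and all but COX20 shared the peak with another coding gene end. In the electron carrier and ubiquinone list 2 of 14 genes had one (14.3%, 4.01 to 39.9%), PDSS1 (6.41) and COQ8A (5.97), both of ubiquinone synthesis, and CYCS, the cytochrome c gene, had none. Among regulators 3 of 16 had one (18.8%, 6.59 to 43.0%), GABPB1 (4.64), a subunit of GABP, CREB1 (3.71) and PPRC1 (4.66), a coactivator of the PGC-1 family. The summit counted for PPRC1 was 845 bp from its end and nearer to an end of LDB1, at 708 bp. NRF1, GABPA, YY1 and TFAM had none. Of the 77 mitochondrial ribosomal protein genes 6 had a summit at an end (7.79%, 3.62 to 16.0%), near the 5.86% of all coding genes. In the gene or within 10 kb 9 had one (11.7%, against 9.58% of all coding genes). Of the intervals given for these lists, only that of the regulators begins above the 5.86% of all coding genes, on 3 genes, and the difference was not tested.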

How the data were processed

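Chromatin was digested with micrococcal nuclease and precipitated with an AM-tag antibody, per the labels' protocols. The submitters' processing notes name Bowtie2, MACS2, deepTools and the build hg38; the sources used here do not give versions, settings, the library from which the peaks were called or whether the Vector library served as control. What was deposited is a headerless MACS2 narrow peak list with, for each peak, a score, a fold enrichment, the −log10 p and −log10 q, and the summit offset, all the authors' values. Positions were made 1-based. Pileup and local background at each summit were recovered from fold, taken as pileup plus 1 over background plus 1, and a Poisson p; the deposited p was returned within 0.001 in log10 for every peak, and on simulated data 300 of 300 pileups were recovered.

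Genes, strands and promoter sequences came from RefSeq tables (GRCh38.p14, the assembly of hg38). Strand and promoter were found for 71 of 89 members and 15812 of 19974 coding genes, with 1 promoter window per gene, that nearest to its outer start. Exons were not used here. A gene was counted where a summit lay within 1 kb of either end, or in the gene or within 10 kb. No test was made, since each group has 1 library, and Wilson intervals cover counting error only. The members and lists were chosen with earlier results of these data known. Named are every member with a peak at an end or within 10 kb, and genes of other lists by significance. Alternatives covered the window, the threshold, overlap, background, members and motif. Python 3.11.15 was used with SciPy 1.17.1, numpy 2.4.6, matplotlib 3.10.9 and pandas 2.3.3.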

Additional observations from a re-analysis of the deposited data

Results flagged for a closer look

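Mitochondrial DNA, which encodes 13 further subunits of the same complexes, was outside the comparisons by nuclear gene and held 4 listed peaks, which is why it is given here. Their folds were 2.83 to 3.50 on a median local background of 11.1 fragments, where peaks on chromosomes 1 to 22 and X had a median of 3.52. By position on the mitochondrial genome they lay at 2349 to 3605, 7771 to 8600, 12197 to 13122 and 15992 to 16416. The second had its summit in ATP8, a membrane subunit of the ATP synthase, and no other summit was in a subunit gene. Which library the list was called from, and whether the other one was its control, is not stated in the sources used here.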

How the results depend on the processing

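No paired analysis was possible because the labels hold a single library per group. With the upper 50% of peaks by significance 2 members had a summit at an end, against 3.01% of all coding genes. In the gene or within 10 kb 5 members had one, against 5% of all coding genes. At ends 0 were left in complex IV and 0 in complex V. With the upper 50% by fold 1 member had a summit at an end, against 3.28% of all coding genes. In the gene or within 10 kb 4 members had one, against 5.48%. Fewer peaks enter by construction. Within 50 kb, 23 of the 89 members had a summit, where 17.7% of all coding genes had one, and the difference was not tested. The split by a shared end, chosen after seeing the data, left 0 at ends among members without one. The median fold was 3.95 over the 4 peaks whose nearest coding end was the member's own, and the median distance 151.5 bp to starts alone, where NDUFB9 drops out, against 129 bp. GGAA was in 68 of 71 member windows (95.8%, against 95.2% of all coding windows). CGGAAGT was in 12 (16.9%, against 9.80%), where CCGGAAG was in 20. The other 26 alternative values were within 1.5 times the main count or the same median. Moving NDUFA4 from complex I to complex IV was planned but not run. The annotation held no gene under that symbol, so NDUFA4 is not among the members. The depth is unknown, so no limit on weaker sites can be given.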
